A study of Mus musculus with 14 samples.

Results

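The genes described are 7 cytokine genes of effector helper T cells, Il2, Ifng, Il4, Il5, Il13, Il17a and Il17f, followed through the chromatin of mouse regulatory T cells. They were read through 4 fixed windows of mm39, and every deposited peak that touches a window was taken: 57 of the 309136 peaks of 10 lists, 37 of them for H3K27ac and 20 for H3K27me3. The windows are chr3:37150000-37205000 for Il2, chr10:118240000-118320000 for Ifng, chr11:53480000-53630000 for Il4, Il13 and Il5, and chr1:20780000-20870000 for Il17a and Il17f.

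Sorted regulatory T cells were profiled by CUT&Tag, where a transposase, guided by an antibody, cuts and tags the chromatin around a histone mark. The knockout cells came from Foxp3YFP-Slc31a1△;wt mice, in which Slc31a1, the gene of the copper importer CTR1, is deleted, and the control cells came from Foxp3YFPcre;wt mice. Both labels name a YFP allele of Foxp3, the gene of the defining transcription factor of these cells, and the control label spells out the Cre; what the wt after the semicolon stands for is not stated. The samples are titled as chimeras, and their age is not stated. The loss of Slc31a1 and the purity of the sort were not checked here, since peak lists hold no reads over a gene and were not annotated. H3K27ac had 3 knockout and 3 control lists, from chimeras 2 to 4 of each genotype, and H3K27me3 had 2 of each, from chimeras 1 and 2. Lists are numbered within each mark, so the same number in both marks does not mean the same chimera. H3K27ac knockout 1 and H3K27me3 knockout 2 are both from knockout chimera 2, and H3K27ac control 1 and H3K27me3 control 2 from control chimera 2. No label says that each library came from a separate animal, so a p-value measures the spread between these libraries, which may be technical.

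As background, Il2 encodes the T cell growth factor, which regulatory T cells consume but, under Foxp3, do not make. Ifng encodes interferon-γ, the signature cytokine of Th1 cells. Il4, Il5 and Il13 share a cluster and are the signature cytokines of Th2 cells, and the neighbouring pair Il17a and Il17f are those of Th17 cells. H3K27ac marks active promoters and enhancers, whereas H3K27me3 is laid down by Polycomb repressive complex 2 on silent genes, above all at promoters rich in CpG. A gene may also be inactive with neither mark.

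The promoters are described first, since CpG content and factor motifs are properties of sequence that the peak lists did not use. RefSeq's promoter table (build GRCm38.p6) held all 7 genes, and the 250 bases before each transcription start were read. Il4 has 2 promoters in the table, and the one at the gene's outer start was used. The promoters held 0 to 6 CpG dinucleotides, with a median of 3, against a median of 6 and quartiles of 2 and 16 over 32841 mouse promoters. Il4 had 0 CpG, Il2 and Il5 had 2 each, Il13 had 3, Il17a and Il17f had 4 each, and Ifng had 6. GC content was between 37.6% and 47.2%, against a median of 52.4% over all promoters. The letters GGAAA, the core of binding sites for the activation factor NFAT that also occurs within NF-κB and ETS sites, were found on either strand in 6 of 7 promoters and in 55.6% of all promoters. Il4 held 5 copies and Il13 held 4, while 6.39% of all promoters held at least 3. The letters TATAAA occurred on either strand in 5 of 7, against 12.4% of all promoters, and were absent from these bases of Il4 and Il5. The promoters of 1 gene for each helper programme are printed 5′ to 3′, with GGAAA or its reverse complement TTTCC in capitals. In GRCm38.p6 they lie at chr3:37125955-37126204 (minus strand) for Il2, chr10:118440796-118441045 (plus strand) for Ifng, chr11:53618666-53618915 (minus strand) for Il4 and chr1:20730655-20730904 (plus strand) for Il17a. These positions belong to another build than the peaks and cannot be set against them.
Il2: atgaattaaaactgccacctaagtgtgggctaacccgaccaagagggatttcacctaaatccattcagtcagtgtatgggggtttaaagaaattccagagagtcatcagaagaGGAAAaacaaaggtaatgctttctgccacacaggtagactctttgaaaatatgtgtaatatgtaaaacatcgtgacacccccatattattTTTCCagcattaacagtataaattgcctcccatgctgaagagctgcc
Ifng: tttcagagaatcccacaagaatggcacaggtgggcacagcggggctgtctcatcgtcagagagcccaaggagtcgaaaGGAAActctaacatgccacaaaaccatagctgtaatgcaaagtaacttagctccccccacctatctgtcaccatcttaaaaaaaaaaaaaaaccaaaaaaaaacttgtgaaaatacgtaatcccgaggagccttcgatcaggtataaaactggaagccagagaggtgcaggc
Il4: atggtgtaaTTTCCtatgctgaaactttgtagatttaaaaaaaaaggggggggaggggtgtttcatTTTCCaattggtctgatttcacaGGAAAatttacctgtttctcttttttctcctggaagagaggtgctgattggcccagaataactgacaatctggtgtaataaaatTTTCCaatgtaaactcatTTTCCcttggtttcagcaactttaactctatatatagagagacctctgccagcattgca
Il17a: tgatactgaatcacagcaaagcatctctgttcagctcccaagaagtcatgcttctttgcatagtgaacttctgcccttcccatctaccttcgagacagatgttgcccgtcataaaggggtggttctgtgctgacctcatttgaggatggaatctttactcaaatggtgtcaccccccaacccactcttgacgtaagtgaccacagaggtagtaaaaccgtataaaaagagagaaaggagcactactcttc

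Because no mm39 annotation was used, a peak is placed within its window and not assigned to a gene. By gene order in GRCm38.p6, the protein-coding neighbours are Adad1 and Il21 for Il2, and Iltifb and Dyrk2 for Ifng. Rad50, a DNA repair gene of all cells, lies between Il13 and Il5, with Kif3a before Il4 and Irf1 after Il5. Il17a and Il17f lie between Pkhd1 and Mcm3.

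The lists differ in length. H3K27ac lists held 28289, 24154 and 21326 peaks in knockouts 1 to 3, against 32012, 27986 and 29748 in controls 1 to 3. H3K27me3 lists held 36436 and 57728 peaks in knockouts 1 and 2, against 7512 and 43945 in controls 1 and 2. The H3K27me3 list of control 1 stands apart: its −log10 p ran between 2.02 and 7.21, while the other 3 lists began above 9, and it had no peak in any window. Each H3K27me3 difference is also given without control 1. Only 1 of the 4 IgG samples is from a knockout, and no source used here says which library served as the caller's background, so background and genotype cannot be told apart.

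The windows fell into unlike states. These genes are often grouped as silent in regulatory T cells. Not all of their windows were free of the active mark, but no peak was assigned to a gene. Acetylation in a window therefore does not show that a cytokine gene carries it. The Ifng window was acetylated in 3 of 3 knockout and 3 of 3 control lists. So was the Il4, Il13 and Il5 window, but at 1 place. The Il2 and Il17a/Il17f windows had no base under an H3K27ac peak in any of the 6 lists. H3K27me3 covered less of each window than of the genome in the same list, except at Il2 in knockout 2 (4.46% against 2.46%). It touched the Il2, the Il4/Il13/Il5 and the Il17a/Il17f windows in 2 of 2 knockout lists and 1 of 2 control lists each, and the Ifng window in 1 of 2 knockout lists and 0 of 2 control lists. The 20 H3K27me3 peaks were 225 to 1823 bp wide, with a median of 383 bp, and 2 of them reached 1 kb. Short peaks were usual for this mark, as the median widths of the whole lists were 606 and 623 bp in knockouts 1 and 2 and 510 and 561 bp in controls 1 and 2. No base of any window lay under peaks of both marks. Peaks show where a mark was enriched and do not measure transcription.

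**Figure D1:**
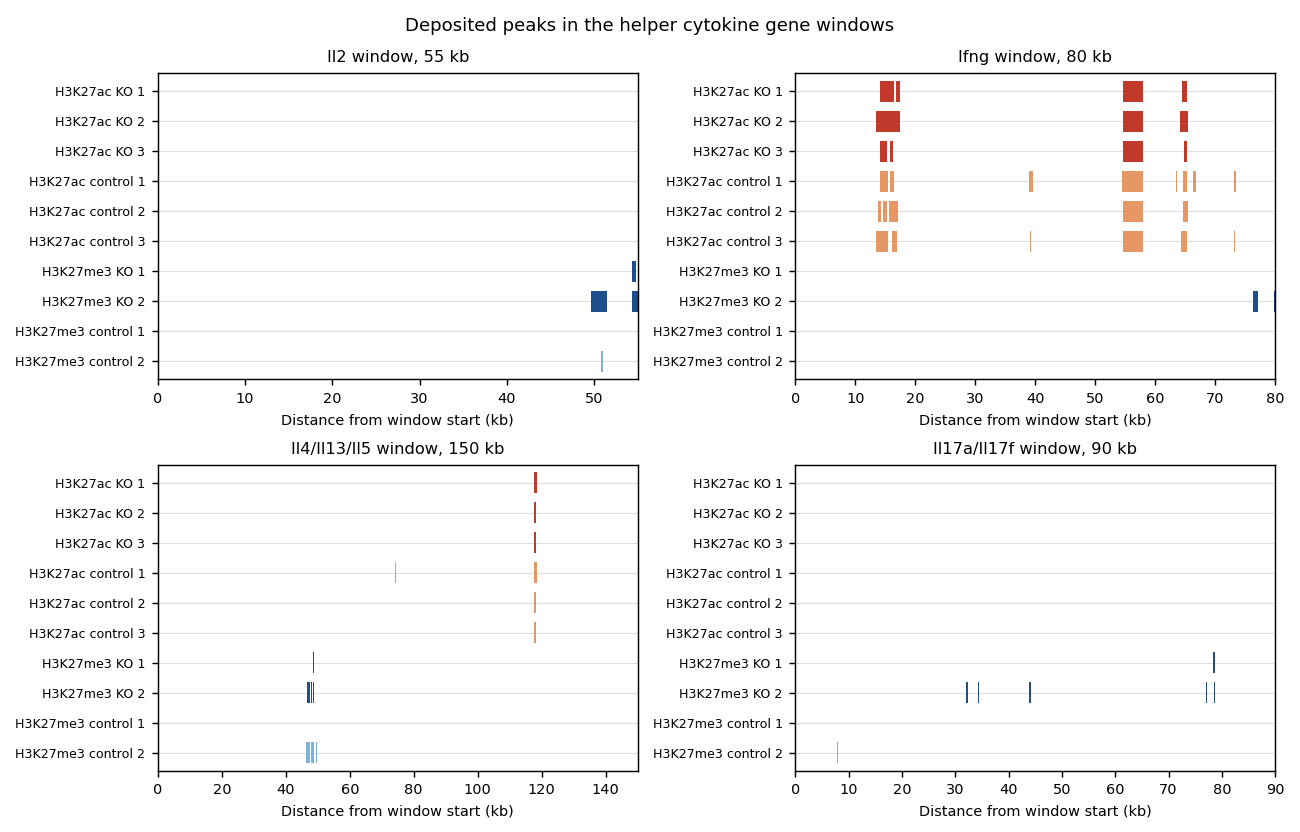
Each panel shows 1 window, with distance from its start in kb on the x axis and 1 row per list, knockouts above controls for each mark. Bars are deposited peaks (bars of the narrowest peaks are drawn at 0.3% of the window so that they show). The Ifng window carries 3 blocks of H3K27ac in all 6 lists, the Il2 and Il17a/Il17f windows carry none, and H3K27me3 appears as short scattered bars.

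The Ifng window was densely acetylated in both genotypes. Bases under H3K27ac peaks came to 7344, 8729 and 5807 in knockouts 1 to 3, against 8085, 6584 and 7540 in controls 1 to 3. The groups overlapped. That is 7.26% to 10.9% of the window in knockouts and 8.23% to 10.1% in controls, where 1.47% to 1.85% of the genome lay under peaks of the same lists. The genome, between the first and last peak of each chromosome over all lists, was also cut into 31945 consecutive tiles of the same 80 kb. Of these tiles, 20.2% to 26.3% held an H3K27ac peak, depending on the list, and 94.4% to 95.3% held fewer acetylated bases than the Ifng window.

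Merging the 6 lists gave 7 acetylated regions in the Ifng window, of which 3 were found in every list. The first, chr10:118253392-118257417, begins 13.4 kb into the window. It held 3049, 4002 and 1852 bases under peaks in the knockouts, against 2065, 2463 and 2773 in the controls. Both the widest and the narrowest value were in knockouts, so the genotypes overlapped. For the H3K27ac lists, the number of fragments at a summit and the local background set by the caller can be read back from the 2 deposited values of each peak, its fold and its −log10 p. These counts were not scaled for read depth, which the lists do not state, so they do not measure a difference between genotypes. At the strongest peak of this region by −log10 p, the summit stood at 221, 154 and 28 fragments in the knockouts over a local background of 50.1, 57.7 and 7.06, against 194, 71 and 118 in the controls over 73.2, 12.9 and 26.1. The strongest peak of knockout 3 was read at another place, chr10:118256273, whereas the other lists had theirs at 118255043 to 118255135. Nearer to these, at chr10:118254941, knockout 3 had a higher but less enriched summit, of 70 fragments over a background of 39.3.

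The second shared region, chr10:118294462-118298011, kept almost the same outline in all lists. It held 3435, 3386 and 3392 bases in the knockouts, against 3543, 3375 and 3370 in the controls, each as a single unbroken peak. Its right edge varied by 19 bp and its left edge by 168 bp over the 6 lists. At 3370 bp or more it was broad for these lists. The widest peak of the Ifng window in each list was matched or exceeded in width by only 7.09% to 12% of that list's peaks, and that widest peak was this one in 5 of the 6 lists, the exception being knockout 2. The summits had 93, 83 and 59 fragments in the knockouts and 85, 49 and 57 in the controls. That of knockout 2 lay at chr10:118296099, and those of the other lists lay at 118297335 to 118297367. The knockout 2 values were therefore read at another place in the peak. Local background was high, at 25, 9.0 and 21.6 fragments in the knockouts against 45.5, 14.9 and 15.8 in the controls. That is 2.96 to 15.8 times the lowest background of the same list, where the median peak of the 6 lists stood at 2.48 to 2.94 times. In the first region local background was 6.20 to 25.4 times the lowest in the lists other than knockout 3. In knockout 3 it was 2.94 times at the strongest peak there and 16.4 times at the higher summit. The part of this background in either region was not tested. By −log10 p within its list, the peak of the second region ranked at percentiles 60.6, 77.9 and 39.0 in knockouts, against 11.2, 39.5 and 47.8 in controls.

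The last shared region, chr10:118304140-118305480, starts 6.13 kb beyond the second. It held 860, 1341 and 563 bases in the knockouts, against 659, 746 and 905 in the controls. Its summits had 56, 53 and 30 fragments over backgrounds of 7.99, 8.47 and 6.18 in the knockouts, and 75, 37 and 48 over 10.8, 7.12 and 5.50 in the controls. Here the local background was only 2.57 to 3.75 times the lowest of the list. The genotypes overlapped again in bases under peaks, and also in the unscaled fragment counts. The first and second shared regions are 37.0 kb apart.

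**Figure D2:**
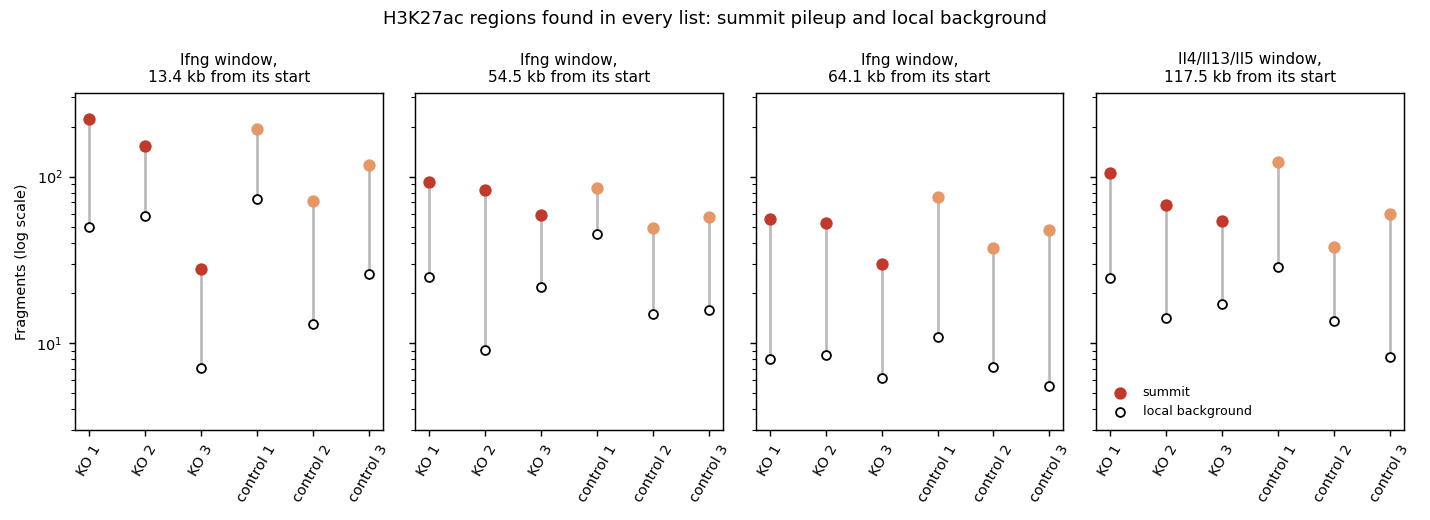
Fragments at the summit (filled) and local background (open) of the strongest peak by −log10 p, on a log axis, for the 4 H3K27ac regions found in every list, with the 3 knockout lists left of the 3 control lists in each panel. Every summit stands above its background, and knockout and control summits, not scaled for read depth, overlap in each panel. Background in the first Ifng region spans 7.06 to 73.2 fragments, where the 7.06 of knockout 3 was read at another place than in the other lists.

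The remaining 4 acetylated regions of the Ifng window were found in control lists only, as were 24.8% of the 37573 merged H3K27ac regions of the genome, where 13.9% were found in knockout lists only. The one nearest the middle of the window, chr10:118278930-118279573, had 0 bases in knockouts 1 to 3, against 644, 0 and 249 in controls 1 to 3. Its summits in controls 1 and 3 had 33 and 20 fragments over a background of 2.88 and 2.75, close to the lowest of those lists, and ranked at percentiles 65.6 and 33.8. Another, chr10:118313125-118313553, had 0 bases in each knockout, against 382, 0 and 243 in the controls, at percentiles 9.33 and 1.35 of the lists of controls 1 and 3. Those at chr10:118303453-118303701 and chr10:118306279-118306821 were found in control 1 alone, with 249 and 543 bases. Control 1 has the longest of the 6 lists, and control 2 lacked all 4 regions, as the knockouts did. The absence in knockouts was therefore not larger than the spread among controls.

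The acetylated Ifng regions stood alone. The next H3K27ac peak outside the window lay 293.42 kb before its start in 3 of 3 knockouts, against 293.42 to 293.57 kb in controls. Beyond its end, the next lay 112 to 229 kb away in knockouts and 111 to 230 kb in controls. H3K27me3 was found in the window in knockout 2 alone, as peaks of 741 and 253 bp at chr10:118316359-118317099 and chr10:118319792-118320044. They lie at its far end, at least 2.81 kb from any acetylated base in the window, and ranked at percentiles 17.3 and 22.1 of that list. The H3K27me3 lists of knockout 1 and of both controls had 0 bases there, in a stretch without peaks of 214 kb in knockout 1 and of 185 kb in control 2. Of the 80 kb tiles, 22.6% and 28.4% held an H3K27me3 peak in knockouts 1 and 2, and 9.52% and 25% in controls 1 and 2.

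In the window of Il4, Il13 and Il5, H3K27ac was confined to a single recurrent region among the 6 lists, apart from 1 peak of 288 bp in control 1 at chr11:53553992-53554279. The recurrent region, chr11:53597529-53598459, held 913, 619 and 606 bases in the knockouts, against 759, 835 and 819 in the controls. Its summits had 105, 68 and 54 fragments over a background of 24.5, 14.2 and 17.2 in the knockouts, and 122, 38 and 60 over 28.5, 13.6 and 8.25 in the controls. That background was 3.91 to 9.90 times the lowest of the same list. The region begins 117.5 kb into the 150 kb window, its left edge varied by 116 bp over the lists, and the genotypes overlapped. Whether it belongs to a cytokine gene or to Rad50, which lies among them, was not determined here.

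Peaks covered 0.404% to 0.609% of the window in knockouts and 0.546% to 0.698% in controls, below the share of the genome under peaks of each list. Most tiles of 150 kb held none, however, and the window held more acetylated bases than 70.6% to 74.8% of 17034 such tiles. The next H3K27ac peak beyond the Il5 end was close, 23.0 to 23.2 kb away in knockouts and 19.3 to 23.2 kb in controls. That before the window was 146 to 158 kb away over the 6 lists.

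The same window held the most recurrent H3K27me3 of the 4 windows, as a cluster of short peaks between chr11:53526312 and 53529666. The middle region of the cluster, chr11:53527863-53528875, was found in 3 of 4 lists, with 386 and 611 bases in knockouts 1 and 2, against 0 and 900 in controls 1 and 2. The region beside it, chr11:53526312-53527462, had 0 and 798 bases in the knockouts, against 0 and 1141 in the controls, and included the strongest H3K27me3 peaks of any of the 4 windows by rank, at percentile 79.1 in knockout 2 and 72.2 in control 2. The remaining one, chr11:53529442-53529666, was a peak of 225 bp in control 2 alone. Control 2 thus held more bases in each of the 3 regions than either knockout. The cluster ends 67.9 kb before the recurrent acetylated region, with no other H3K27me3 peak in the window.

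The Il2 window had no acetylation in either genotype. It lay within a stretch free of H3K27ac that measured 341, 341 and 449 kb in knockouts 1 to 3 and 340 kb in each control. A lack of acetylation is the usual state, since only 16.2% to 21.8% of 46471 tiles of 55 kb held an H3K27ac peak. The acetylation-free stretch began at the same distance in every list, 231.6 to 231.7 kb before the window. It ended 53.4 to 53.5 kb after the window in the controls and 54.2 and 54.3 kb after it in knockouts 1 and 2. In knockout 3, which has the shortest H3K27ac list, the next peak was 163 kb away.

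H3K27me3 reached only the last 6 kb of the Il2 window, on the side of Il21 by gene order. Bases under peaks were 459 and 2453 in knockouts 1 and 2, against 0 and 247 in controls 1 and 2, so the groups did not overlap. That is common for this mark: of 11293 tiles of 55 kb with a peak in at least 1 list, 31% had more bases in each knockout than in any control. One region, chr3:37199665-37201487, had 0 and 1823 bases in the knockouts, against 0 and 247 in the controls. The other, chr3:37204371-37205060, crosses the end of the window. It was found in both knockouts and no control, as peaks of 459 and 690 bp at percentiles 39.9 and 53.8 of their lists. In knockout 1 its summit had 26 fragments over a background of 3.81. How many H3K27me3 regions of the genome were found in both knockouts and no control was not counted. Because control 1 had no peak in any window, the absence from controls rests on control 2. The next H3K27me3 peak beyond the window lay 192 kb away in both knockouts and in control 2.

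The Il17a/Il17f window had no acetylation in either genotype and lay in a far longer stretch without it than the Il2 window, although in some lists with a nearer peak on one side. It was near the end of a stretch without H3K27ac peaks that measured 4130, 4362 and 4362 kb in knockouts 1 to 3 and 4130, 4129 and 4201 kb in controls 1 to 3. Stretches longer than this numbered 55 to 59 among the 21306 to 31992 between neighbouring peaks of a list. They are so long, however, that they held 14.6% to 16.4% of the genome between neighbouring peaks. The stretch around Il17a/Il17f began at nearly the same distance before the window in all 6 lists, between 4020.02 and 4020.76 kb. After it, the first H3K27ac peak was 20.1 to 252 kb away in knockouts and 18.7 to 90.6 kb away in controls. By gene order that is the side of Mcm3, a replication factor gene.

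H3K27me3 in the Il17a/Il17f window was scattered over 6 regions of 232 to 403 bp. Bases under peaks were 387 and 1394 in knockouts 1 and 2, against 0 and 305 in controls 1 and 2, again with no overlap between groups, as in 30.7% of 8960 tiles of 90 kb with a peak. Knockout 2 supplied 5 of the 7 peaks. Only 1 region, chr1:20858303-20858705, recurred, with 387 and 254 bases in knockouts 1 and 2 and 0 in both controls, at percentiles 20.8 and 3.42 of their lists. The peak of control 2, chr1:20787728-20788032, began 70.6 kb before it, at the other end of the window. The genome share of H3K27me3 regions found in both knockouts and no control was not counted, and with no peak of control 1 in any window the absence rests on control 2. Of 28397 tiles of 90 kb, 24.1% and 30.3% held an H3K27me3 peak in knockouts 1 and 2, against 10.4% and 26.7% in controls 1 and 2, and 0.339% of the window was covered in control 2 against 1.58% of the genome.

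**Figure D3:**
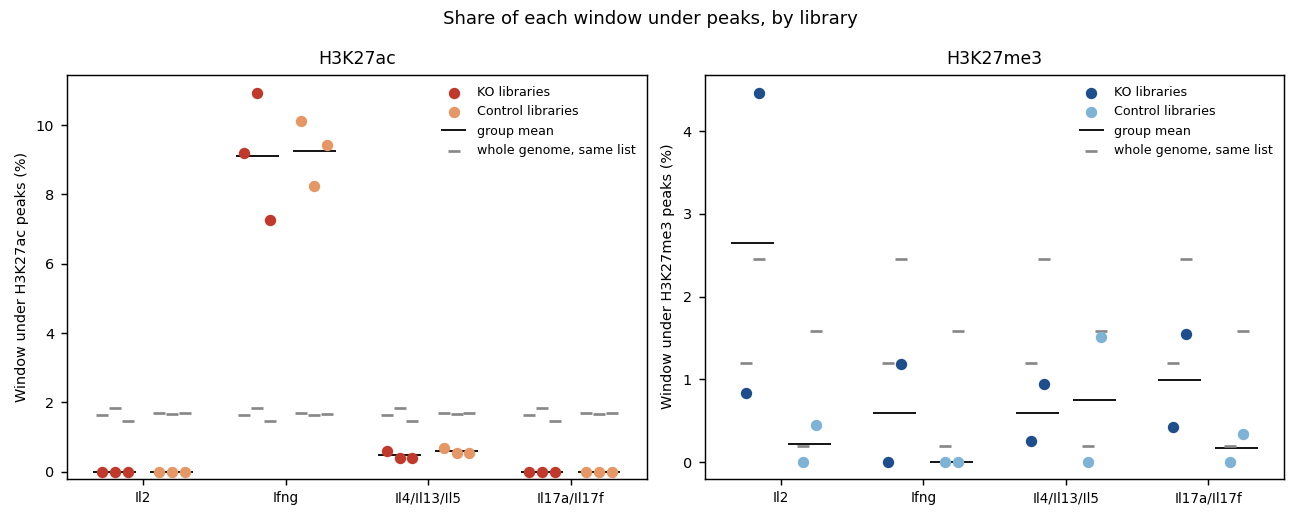
Percent of each window under H3K27ac (left) and H3K27me3 (right) peaks, with 1 point per library, knockouts left of controls, black lines for group means and grey ticks for the share of the whole genome under the peaks of the same list. Ifng stands at 7.26% to 10.9% H3K27ac in every library, and the knockout mean of the Il2 window for H3K27me3 rests on knockout 2 at 4.46%.

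For H3K27ac, knockout and control windows overlapped in bases under peaks or were all at 0, while for H3K27me3 the Il2 and Il17a/Il17f windows did not overlap and the other two did. In H3K27ac bases, Ifng averaged 7293 ± 1462 bases in knockout and 7403 ± 760 in control libraries (n = 3 each, ± SD, two-sided exact permutation p = 0.9, p = 1 when adjusted over the 4 windows). At the Il4/Il13/Il5 window these were 713 ± 174 bases in knockout and 900 ± 127 in control libraries (n = 3 each, ± SD, two-sided exact permutation p = 0.3, adjusted p = 1). The smallest p this test can give is 0.1 for H3K27ac and 0.333 for H3K27me3, so it cannot pass a threshold of 0.05 and a larger p does not show that the genotypes are alike.

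For H3K27me3, the Il2 window averaged 1456 ± 1410 bases in knockout and 124 ± 175 in control libraries (n = 2 each, ± SD, two-sided exact permutation p = 0.333, adjusted p = 0.667). The Il17a/Il17f window averaged 891 ± 712 bases in knockout and 153 ± 216 in control libraries (n = 2 each, ± SD, exact permutation p = 0.333, adjusted p = 0.667). Ifng averaged 475 ± 672 bases in knockouts and 0 in controls, while Il4/Il13/Il5 averaged 898 ± 723 bases in knockout and 1133 ± 1602 in control libraries (n = 2 each, ± SD, and in each window exact permutation p = 1). The Il2 difference, 1332.5 bases, was 1209 without control 1 and 335.5 without knockout 2. That of Il17a/Il17f, 738 bases, was 585.5 and 234.5 in the same settings, and that of Il4/Il13/Il5, -235.5 bases, was -1368.5 without control 1 and -747 without knockout 2. That of Ifng stayed at 475 without control 1 and was 0 without knockout 2. The list of knockout 2 is the longest of the 4, with 2.46% of the genome under peaks, against 1.20% in knockout 1 and 1.58% in control 2.

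In a second test, limma was fitted across all 10 kb bins of the genome on log2(bases under peaks + 100), centred per library, and changes are knockout minus control on that scale. For H3K27ac, 2.83% of 19295 bins were called at an adjusted p under 0.05, 2.25% lower and 0.58% higher in knockouts. This background is itself unstable: the 435 lower and 112 higher bins became 0 and 3, 0 and 0, and 0 and 1 without control 1, 2 or 3, and 1368 and 232, 26 and 0, and 84 and 1 without knockout 1, 2 or 3. With the replicate block they were 29 and 3. Of 7 window bins with a peak, 4 were covered in enough lists to be tested and 0 were called, also at an unadjusted p under 0.05. The Ifng bin from 118250001 changed by 0.20 (SE 0.214, limma adjusted p = 0.714), that from 118290001 by -0.03 (SE 0.128, limma adjusted p = 0.929) and that from 118300001 by -0.20 (SE 0.337, limma adjusted p = 0.821). The chromosome 11 bin from 53590001 changed by -0.20 (SE 0.318, limma adjusted p = 0.809). The median of these 4 was -0.12, against -0.05 over all bins tested. The 3 bins that were not tested are those found in controls only.

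For H3K27me3, 0.3% of 21034 bins were called, 0.0428% lower and 0.257% higher. The 9 lower and 54 higher bins became 829 and 5799 without control 2, 0 and 49 without control 1, 45 and 48 without knockout 1 and 192 and 96 without knockout 2. They were 330 and 51 with quantile normalization, which turns the balance of directions, and 0 and 0 without centring, so neither share is a firm background. Of 8 window bins with a peak, 3 were tested and limma called 0, also at an unadjusted p under 0.05. The Il2 bin from 37200001 changed by 1.56 (SE 0.960, limma adjusted p = 0.537), the Il17a/Il17f bin from 20850001 by 1.38 (SE 1.26, limma adjusted p = 0.590) and the chromosome 11 bin from 53520001 by -0.22 (SE 0.856, limma adjusted p = 0.883). The median of the 3 was 1.38, against 0.78 over all bins tested. Without control 1 these medians were 1.46 and -0.14. In simulated data, limma recovered 2% of bins changed by 2 on the log2 scale for H3K27me3 and 50% for H3K27ac, so a change of that size at a bin could go uncalled.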

How the data were processed

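Mouse regulatory T cells, 140000 per sample, were profiled by CUT&Tag, and 10 of 14 samples had a peak list. Per the submitters' processing notes, the tools were Bowtie2 2.2.4, deepTools 3.5.1, MACS2, ChIPseeker 1.30.3 and HOMER 4.11, with build mm39; settings and the background library are not given in the sources used here. The authors deposited 1 list per library, with peak positions, a score, a fold enrichment (a ratio) and −log10 p and q, which are each peak's own values.

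Bases under peaks were summed per window, positions counted from 1, and compared by exact permutation (Python 3.11.15, Benjamini-Hochberg over 4 windows). All 10 kb bins were fitted with limma 3.58.1 (R 4.3.3, trended, robust, median-centred, bins covered in 3 H3K27ac or 2 H3K27me3 lists), which was tested on simulated data. Read depth is not stated in the lists. Assuming fold = (pileup + 1) / (background + 1) and a Poisson p, 100% of checked peaks gave whole fragments in 7 lists, within 0.002 or 0.02% of the deposited −log10 p. These were the H3K27ac lists and the H3K27me3 list of knockout 1. In the H3K27me3 lists of knockout 2, control 1 and control 2 the share was 1.43%, 0% and 4.96%. Knockout 1 thus differs in this respect from each H3K27me3 list it is compared with, and the cause was not tested. Whether PCR copies were kept is not stated, so the error given is the spread between libraries. The rule named all 7 genes and every peak in a window. The genes, windows and tests were chosen with earlier results of these data known. The marker and wider cytokine lists were not used here, because no mm39 annotation was at hand.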

Additional observations from a re-analysis of the deposited data

How the results depend on the processing

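Of 54 limma counts under alternatives, the number of window bins called stayed at 0. The smallest limma adjusted p of any window bin was between 0.432 and 0.860 for H3K27ac and between 0.205 and 1.00 for H3K27me3. With H3K27me3 lists of equal length no window bin could be tested, because the lists are then as short as control 1. The cause of the other changes was not tested, beyond what shorter lists, smaller windows or fewer libraries leave by construction.

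The Ifng difference in H3K27ac, -109.7 bases, has no stable direction: it was 2203 with lists of equal length, 2812 with the stronger 50% of each list, 98.7 with 10 kb removed at each side, and between -827.5 and 633.5 without 1 library (633.5 without knockout 3, 231 without control 1). At Il4/Il13/Il5 the H3K27ac difference, -188 bases, turned to 187 when lists had equal length; leaving out 1 library gave -288 to -114. For Il2 and Il17a/Il17f it stayed 0. All 4 H3K27me3 differences were 0 with lists of equal length. Those of Il2 and Ifng were 0 with 10 kb removed at each side, and that of Ifng, 475, was 0 with the stronger 50%. Without 1 library they ranged between 335.5 and 2330 at Il2, 0 and 950 at Ifng, and 234.5 and 1242 at Il17a/Il17f. At Il4/Il13/Il5, -235.5 became 21.5 with the stronger 50% and ranged between -1369 and 898 without 1 library (276 without knockout 1, 898 without control 2).

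The number of lists with a mark in a window also moved. With at least 1 kb under peaks, H3K27me3 was left in 1, 0, 2 and 1 lists for Il2, Ifng, Il4/Il13/Il5 and Il17a/Il17f, against 3, 1, 3 and 3, and H3K27ac in 1 of 6 at Il4/Il13/Il5. In the stronger 50% of each list, H3K27ac was left in 5 lists at Ifng and 4 at Il4/Il13/Il5, and H3K27me3 in 1, 0 and 1 at Il2, Ifng and Il17a/Il17f. With 10 kb removed at each side, H3K27me3 was left in 0, 0 and 2 at Il2, Ifng and Il17a/Il17f.

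Whether the replicate numbers of the labels pair the libraries was not settled. Deviations of same-numbered H3K27ac libraries correlated at 0.246, 0.053 and 0.0102, against -0.213 to 0.177 for differently numbered ones. For H3K27me3 these were 0.00261 and -0.00261, equal in size by construction with 2 libraries per genotype. With the replicate block, the differences keep their values by construction (-109.7 and -188 bases for H3K27ac at Ifng and Il4/Il13/Il5, and 1332.5, 475, -235.5 and 738 for H3K27me3 at Il2, Ifng, Il4/Il13/Il5 and Il17a/Il17f) and limma again called 0 window bins.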
